A study of Arabidopsis thaliana with 24 samples.

Results

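Transcripts of 5 genes for WRKY transcription factors, WRKY6, WRKY22, WRKY41, WRKY42 and WRKY47, were followed in shoots and roots of Arabidopsis under sulfur deficit. They were chosen by name, with earlier results of these data known, from the WRKY genes that have a probe set assigned to them alone. They are 5 of the 16554 genes tested. The RefSeq gene table lists 72 WRKY genes, of which 7 had such a probe set; WRKY20 and WRKY29 are the other two and are given as companions. A further 3 WRKY genes lie only on probe sets shared with another gene and have no value here, and 62 have no probe set in the annotation used. By their locus codes WRKY6 (AT1G62300) is on chromosome 1, and WRKY22 (AT4G01250), WRKY41 (AT4G11070), WRKY42 (AT4G04450) and WRKY47 (AT4G01720) are on chromosome 4, which holds 6 of the 7 WRKY genes with a value and 14.9% of the nuclear genes tested.

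The study asked how overexpression of NBR1, a cargo receptor of selective autophagy, alters the response to sulfur deficit. The tested line OX7.5 carries NBR1 with a C-terminal TAP tag under the constitutive 35S promoter in the Col-0 background, and it is a single transgenic line; WT is Col-0. Shoots and roots of both lines were taken from 33-day-old plants, after 4 days in -S according to the methods or in sufficient sulfur (nS), giving OX7.5 -S, OX7.5 nS, WT -S and WT nS in each organ. Each of the 8 groups had 3 biological replicates, one array each, 24 arrays in all. The labels describe plants in soil and the methods hydroponic culture, and samples whose label names no low sulphate were read as nS. The -S arrays and the nS arrays form separate runs of sample numbers, so that a batch, if there was one, and sulfur supply cannot be told apart.

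Signals are log2 values. Shoots and roots appeared to be normalized separately, since the median of all probe sets was 3.92 to 3.97 on the shoot arrays and 2.58 to 2.63 on the root arrays. Levels were therefore read within an organ, as signals and as percentiles among the genes tested, where 100 is the brightest. Replicate arrays correlated at 0.973 to 0.991 over all probe sets. The leaf markers RCA and PSAN stood at percentiles 96.8 to 99.7 in shoots and 20.5 to 55.7 in roots, and EXP7, a gene of root hair cells, at 16.2 to 31.0 in shoots and 69.7 to 82.2 in roots, so the organ labels fit these markers, of 11 leaf and 12 root markers listed. The annotation used assigns no probe set to NBR1, alone or shared, so its overexpression was not checked here. In whole organs, fewer cells of a type and less RNA per cell cannot be told apart.

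WRKY factors are a large plant family that binds the W-box, a short promoter element common in defence and senescence genes, and most members respond to pathogens, wounding, senescence or nutrient supply. WRKY6, WRKY42 and WRKY47 belong to group IIb of the family, WRKY22 and WRKY29 to group IIe, WRKY41 to group III and WRKY20 to group I. WRKY6 is known from senescing leaves and from defence, and WRKY6 and WRKY42 both repress the phosphate exporter gene PHO1. WRKY22 and WRKY29 lie downstream of the MAP kinase cascade that is set off by bacterial flagellin. WRKY41 is known from seed dormancy, where it acts on ABI3, and from the response to bacteria. WRKY47 is known from cell wall modification under aluminium stress.

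In the response to -S, 3 of the 5 genes, WRKY6, WRKY41 and WRKY47, rose in shoots of OX7.5 and the same 3 rose in shoots of WT; none of the 5 fell there. In roots of OX7.5, WRKY6 and WRKY41 rose and none fell, while in roots of WT, WRKY6 rose and WRKY22 fell. A gene is called here at an adjusted p under 0.05 from limma, Benjamini-Hochberg adjusted over all 16554 genes. Among all genes, 7.77% rose and 7.37% fell in OX7.5 shoots, and 11.8% rose and 12.7% fell in WT shoots. In OX7.5 roots 10.5% rose and 9.89% fell, and in WT roots 12.5% rose and 10.1% fell. The median log2 fold change of the 5 genes was 0.87 in OX7.5 shoots and 1.06 in WT shoots, beside all-gene medians of -0.0003 and -0.03. In roots the medians of the 5 were -0.01 in OX7.5 and -0.20 in WT, beside -0.02 and -0.06 over all genes. The 5 were chosen with earlier results of these data known, so these medians describe them alone. With the companions WRKY20 and WRKY29 counted, 3 of 7 rose in shoots of each line. The companions had 0.09 and -0.09 in OX7.5 shoots, and 0.03 and -0.42 in WT shoots, none called. Of the 7, 2 rose in OX7.5 roots, and 2 rose and 1 fell in WT roots. With the looser thresholds of the methods (1.5-fold or more, p under 0.05 without adjustment), 3 of the 5 passed in OX7.5 shoots, 4 in WT shoots, 2 in OX7.5 roots and 3 in WT roots. The same thresholds took in 12.2%, 18.7%, 15.6% and 17.2% of all genes in these contrasts.

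**Figure D1:**
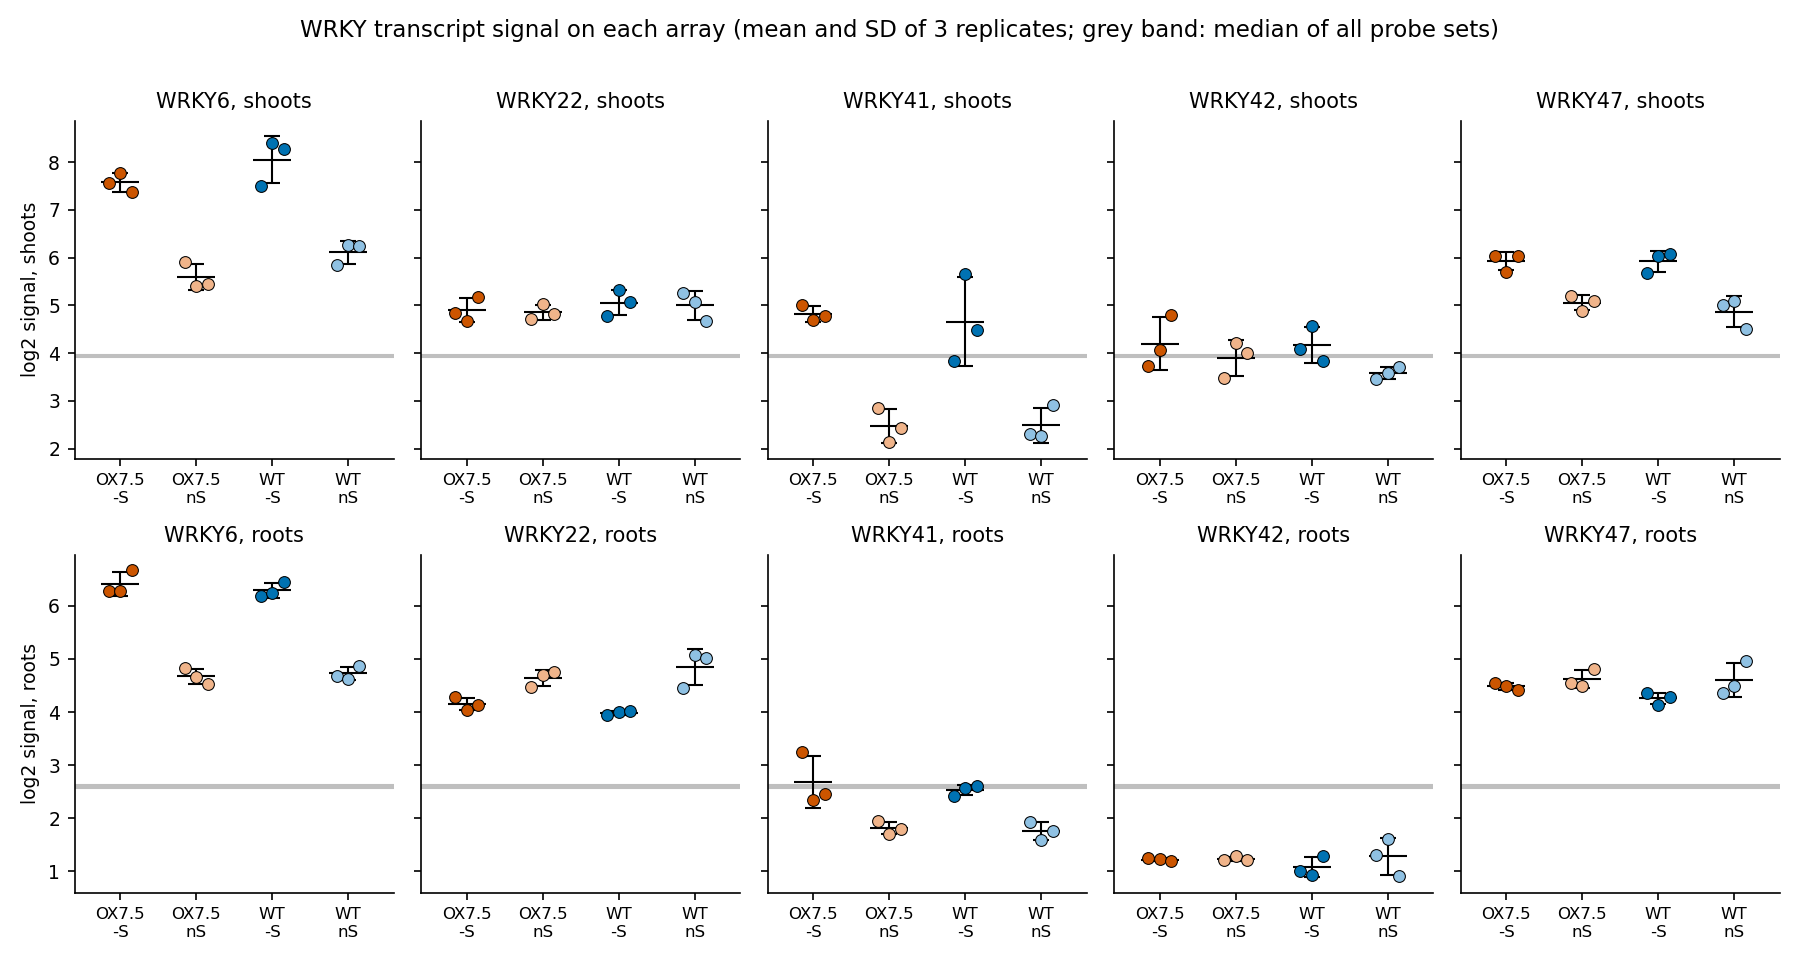
Log2 signal of each WRKY gene on each array, shoots in the upper row and roots in the lower row, for OX7.5 -S, OX7.5 nS, WT -S and WT nS. Points are arrays, the long bar is the mean and the whisker the SD of 3 replicates, and the grey band spans the medians of all probe sets (3.92 to 3.97 in shoots, 2.58 to 2.63 in roots); WRKY6 is separated by sulfur supply in every panel, and WRKY42 lies under the band on every root array.

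WRKY6 rose under -S in both organs of both lines. In OX7.5 shoots its signal was 7.57, 7.78 and 7.38 in -S, against 5.91, 5.42 and 5.44 in nS. In WT shoots it was 7.49, 8.40 and 8.27 in -S, against 5.84, 6.26 and 6.24 in nS. The lowest -S array of either line lay above the highest nS array of both. The log2 fold change was 1.99 ± 0.20 in OX7.5 shoots (standard error, n = 3 per group, limma adjusted p = 1.5e-07) and 1.94 ± 0.20 in WT shoots (adjusted p = 7.8e-08), which is 3.96-fold and 3.84-fold. Counted from the most strongly raised gene of 16554, WRKY6 ranked at place 75 in OX7.5 shoots and at place 155 in WT shoots.

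In roots of OX7.5, WRKY6 read 6.29, 6.28 and 6.67 in -S, against 4.82, 4.65 and 4.54 in nS. In WT roots it read 6.18, 6.24 and 6.45 in -S, against 4.68, 4.62 and 4.87 in nS. The lines overlapped at each sulfur supply, and every -S array was above every nS array. The log2 fold change was 1.74 in OX7.5 roots (limma adjusted p = 3.4e-07) and 1.56 in WT roots (adjusted p = 1.6e-06), each with a standard error of 0.20, or 3.34-fold and 2.95-fold. Under -S, WRKY6 stood at percentile 93.8 to 95.9 in OX7.5 shoots, 94.7 to 97.7 in WT shoots, 95.1 to 96.7 in OX7.5 roots and 94.7 to 95.7 in WT roots. In nS it ranged over percentiles 76.1 to 86.4 in shoots and 80.1 to 83.9 in roots.

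WRKY41 had the largest fold change of the 5 in shoots and a smaller one in roots. In OX7.5 shoots it read 5.01, 4.69 and 4.78 in -S, against 2.85, 2.13 and 2.43 in nS. In WT shoots it read 3.83, 5.66 and 4.48 in -S, against 2.30, 2.25 and 2.91 in nS. The -S arrays of OX7.5 lay close together, with an SD of 0.17, while those of WT were spread over nearly the whole rise, with an SD of 0.93. The -S and nS arrays did not overlap in either line. In nS the signal was dim, under the array median on all 3 arrays of each line. It stood there at percentiles 20.6 to 35.7 in OX7.5 shoots and 22.9 to 38.1 in WT shoots. WRKY41 rose by 2.36 ± 0.30 in OX7.5 shoots (standard error, limma adjusted p = 4.7e-06) and by 2.17 ± 0.30 in WT shoots (adjusted p = 5.9e-06), or 5.13-fold and 4.50-fold. Its place from the top was 42 of 16554 in OX7.5 shoots and 119 in WT shoots. Without the highest WT array, replicate 2 in -S, the rise in WT shoots was 1.67, and it stayed called without any single array, at adjusted p up to 8.5e-05.

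In roots WRKY41 was dim. It read 3.24, 2.34 and 2.46 in OX7.5 roots in -S, against 1.94, 1.71 and 1.80 in nS. In WT roots it read 2.42, 2.57 and 2.60 in -S, against 1.93, 1.60 and 1.75 in nS. All 6 nS arrays and 4 of the 6 -S arrays were under the median of all probe sets, and no detection calls accompany the values. The log2 fold change was 0.86 in OX7.5 roots (limma adjusted p = 0.042) and 0.77 in WT roots (adjusted p = 0.068), each with a standard error of 0.30. The call in OX7.5 roots was near the threshold. It was lost without nS replicate 1, nS replicate 2, nS replicate 3 or -S replicate 1, with adjusted p up to 0.26. Without -S replicate 1, the array at 3.24, the rise was 0.58, and without nS replicates 1, 2 or 3 it was 0.93, 0.81 and 0.86. With root arrays fitted alone the rise was called (limma adjusted p = 0.0050). It was not called without moderation (0.10) or with the replicate number as a block (0.057).

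WRKY47 rose in shoots and not in roots. In OX7.5 shoots it read 6.03, 5.70 and 6.04 in -S, against 5.19, 4.89 and 5.09 in nS. In WT shoots it read 5.67, 6.04 and 6.07 in -S, against 5.01, 5.10 and 4.50 in nS. Every -S shoot array was above every nS shoot array. WRKY47 rose by 0.87 ± 0.17 in OX7.5 shoots (standard error, limma adjusted p = 0.00077) and by 1.06 ± 0.17 in WT shoots (adjusted p = 4.3e-05), or 1.83-fold and 2.08-fold.

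In OX7.5 roots WRKY47 read 4.55, 4.48 and 4.41 in -S, against 4.56, 4.49 and 4.81 in nS, so that -S and nS overlapped. In WT roots it read 4.36, 4.13 and 4.28 in -S, against 4.36, 4.49 and 4.96 in nS, with the highest -S array just below the lowest nS array. The log2 fold change was -0.14 in OX7.5 roots (95% interval -0.49 to 0.22, limma adjusted p = 0.70) and -0.35 in WT roots (-0.70 to 0.00, adjusted p = 0.16). The gene was well above the array median in both organs, at percentiles 63.8 to 83.6 in shoots and 74.4 to 84.9 in roots.

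WRKY22 fell in WT roots and was called in no other response to -S. In OX7.5 roots it read 4.28, 4.04 and 4.13 in -S, against 4.47, 4.71 and 4.75 in nS. In WT roots it read 3.95, 4.00 and 4.02 in -S, against 4.45, 5.07 and 5.01 in nS. The -S arrays were below the nS arrays in both lines, and the 3 WT arrays in -S had an SD of 0.04. The log2 fold change was -0.86 ± 0.18 in WT roots (standard error, limma adjusted p = 0.00085), or 0.55-fold, and -0.49 ± 0.18 in OX7.5 roots (adjusted p = 0.054). The OX7.5 value was called when root arrays were fitted alone, when dim genes were left out and after quantile normalization, with adjusted p from 0.035 to 0.041. It was not called without moderation (limma adjusted p = 0.077) or with the replicate number as a block (0.069). Leaving out any single array gave no call either, at adjusted p from 0.051 to 0.17. In shoots the same gene read 4.85, 4.67 and 5.19 in OX7.5 -S, against 4.70, 5.02 and 4.83 in OX7.5 nS. In WT shoots it read 4.78, 5.32 and 5.07 in -S, against 5.27, 5.07 and 4.67 in nS. All 4 shoot groups overlapped, with log2 fold changes of 0.05 in OX7.5 (95% interval -0.32 to 0.42) and 0.06 in WT (-0.31 to 0.43).

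WRKY42 was called in no contrast. In OX7.5 shoots it read 3.72, 4.07 and 4.81 in -S, against 3.47, 4.21 and 4.00 in nS. In WT shoots it read 4.09, 4.58 and 3.84 in -S, against 3.46, 3.58 and 3.70 in nS. The -S and nS arrays overlapped in OX7.5 and not in WT, and the line by sulfur interaction was not called (adjusted p = 0.90). The log2 fold change was 0.30 in OX7.5 shoots (95% interval -0.17 to 0.77, limma adjusted p = 0.45) and 0.59 in WT shoots (0.12 to 1.06, adjusted p = 0.062). The WT shoot value passed with the thresholds of the methods, and at adjusted p = 0.044 with dim genes left out. Leaving out the lowest WT array in -S, replicate 3, gave 0.75 with an adjusted p of 0.032. Without the highest, -S replicate 2, the WT shoot value was 0.39 with a limma adjusted p of 0.33. With shoot arrays fitted alone the adjusted p was 0.14, and without moderation it was 0.11. The OX7.5 shoot value was 0.00035 without -S replicate 3, the array at 4.81, and 0.54 without -S replicate 1, and it was not called without any single array.

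In roots WRKY42 was dim, at percentiles 14.1 to 38.4 and under the array median on all 12 arrays. It read 1.25, 1.23 and 1.19 in OX7.5 roots in -S, against 1.21, 1.28 and 1.21 in nS. In WT roots it read 1.02, 0.93 and 1.29 in -S, against 1.31, 1.62 and 0.92 in nS. The groups overlapped, with log2 fold changes of -0.01 in OX7.5 roots and -0.20 in WT roots (limma adjusted p = 0.99 and 0.60). Whether signals this low follow the transcript was not tested.

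**Figure D2:**
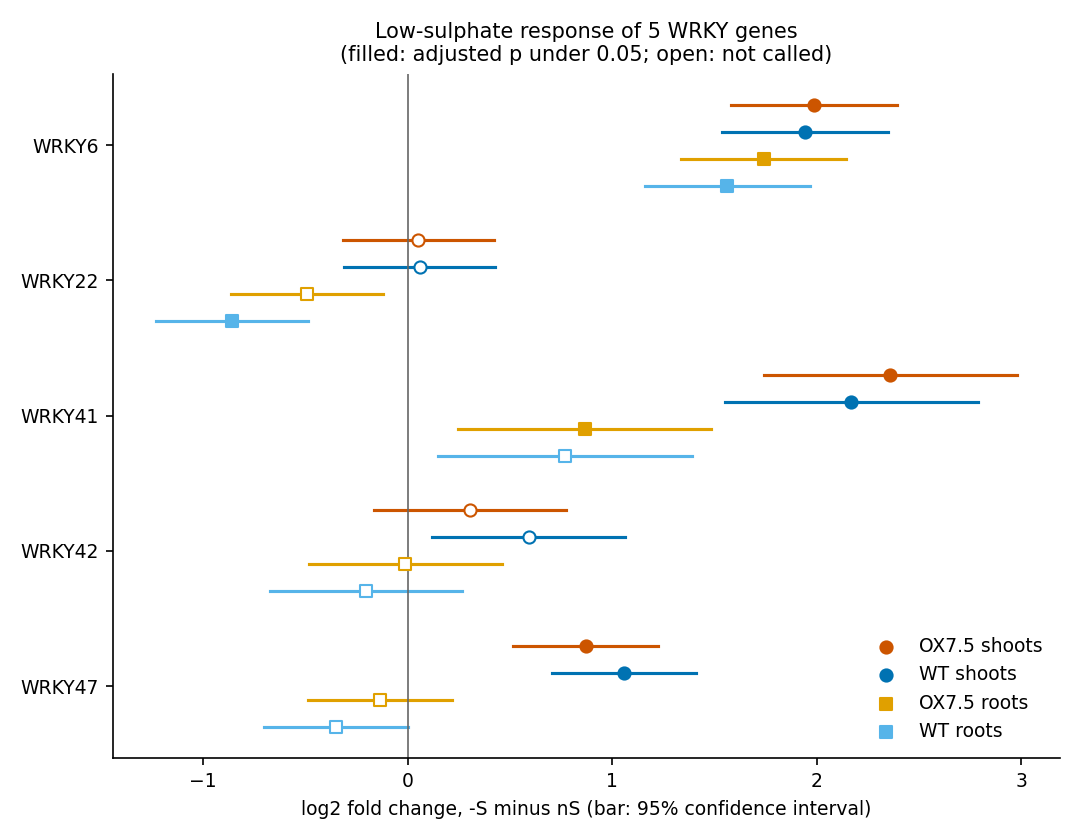
Log2 fold change of each WRKY gene, -S minus nS, in OX7.5 and WT shoots (circles) and OX7.5 and WT roots (squares), with 95% confidence intervals from limma. Filled symbols had an adjusted p under 0.05; WRKY6 is filled in all 4 contrasts, from 1.56 to 1.99, and WRKY42 in none.

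**Figure D3:**
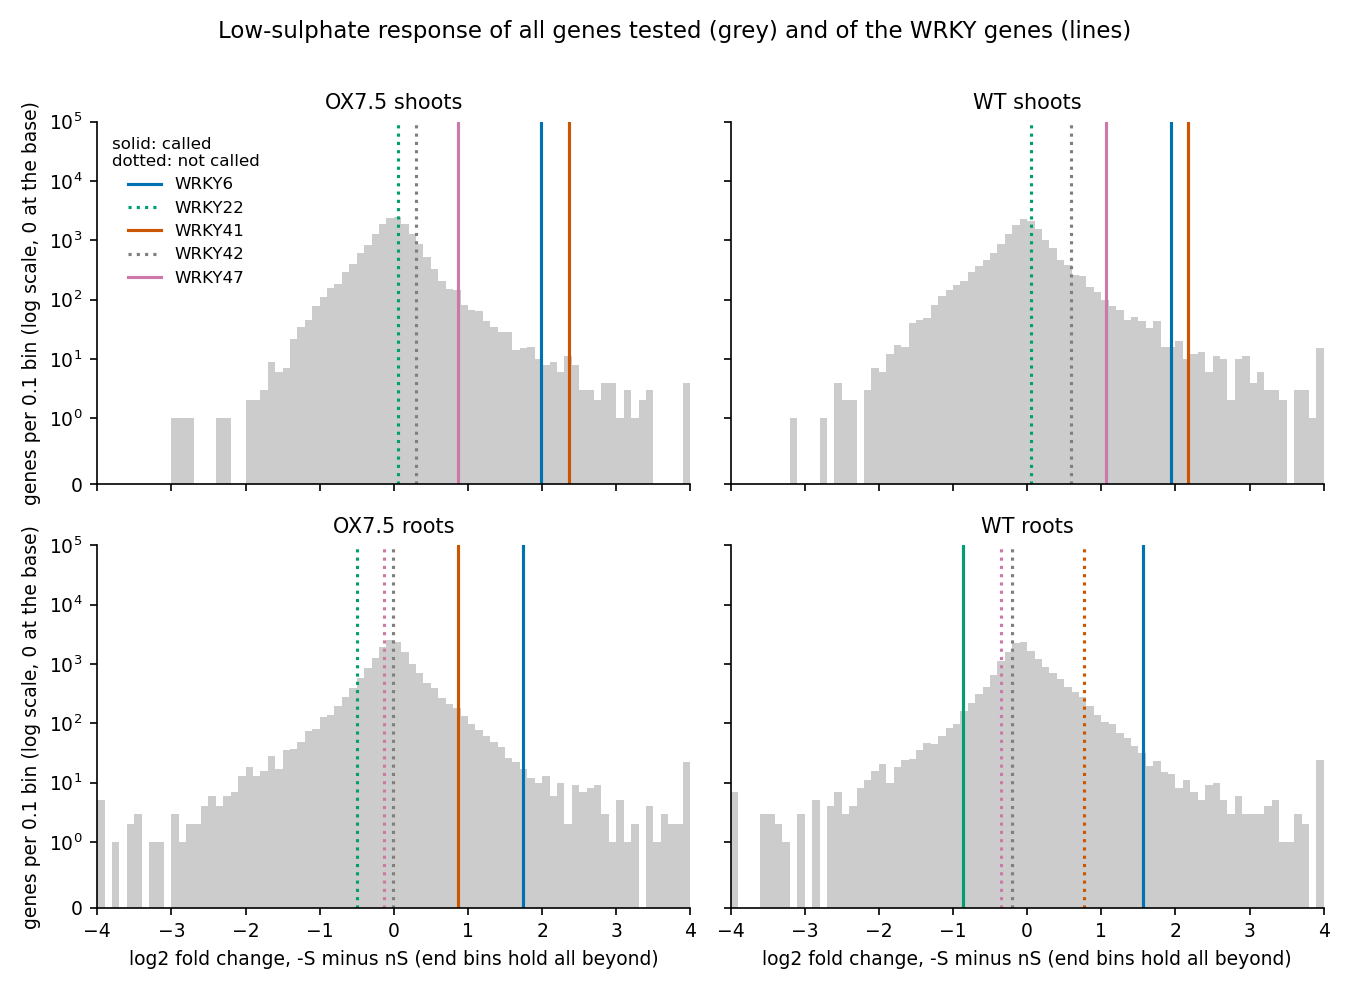
Number of genes in each 0.1-wide bin of log2 fold change, -S minus nS, for all 16554 genes (grey, log scale with 0 at the base; the end bins hold all values beyond), in OX7.5 and WT shoots above and OX7.5 and WT roots below. Lines mark the 5 WRKY genes, solid where called; in shoots WRKY6 and WRKY41 stand near 2 on the right flank, and WRKY22 stands left of 0 in both root panels.

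The response was compared between organs as the log2 fold change in shoots minus that in roots, within each line. In OX7.5, 2 of the 5 genes differed, WRKY41 and WRKY47, beside 16.4% of all genes in either direction. In WT, 3 of the 5 differed, WRKY22, WRKY41 and WRKY47, beside 22.4% of all genes, and each called difference was positive. For WRKY41 the difference was 1.49 in OX7.5 (95% interval 0.62 to 2.37, limma adjusted p = 0.016) and 1.40 in WT (0.53 to 2.28, adjusted p = 0.018). The OX7.5 call was lost without shoots nS replicate 2 or roots -S replicate 2, at an adjusted p of up to 0.051. The WT call was lost without shoots -S replicate 2, which left a difference of 0.90 and an adjusted p of 0.064. The signal of WRKY41 was under the array median on 10 of 12 root arrays and 7 of 12 shoot arrays, and the part of this in the difference was not tested.

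For WRKY47 the organ difference was 1.01 in OX7.5 (95% interval 0.51 to 1.51, limma adjusted p = 0.0050) and 1.41 in WT (0.91 to 1.91, adjusted p = 0.00014). The response of WRKY47 thus had opposite signs in the organs of both lines, with only the shoot rise called. For WRKY22 the difference was 0.54 in OX7.5 (0.02 to 1.07, adjusted p = 0.16) and 0.92 in WT (0.39 to 1.44, adjusted p = 0.010). WRKY42 differed by 0.31 in OX7.5 (adjusted p = 0.59) and by 0.79 in WT (adjusted p = 0.082). The WT value of WRKY42 was called without shoots -S replicate 3 or without roots nS replicate 3, at adjusted p as low as 0.036. WRKY6 showed differences of 0.25 in OX7.5 (95% interval -0.33 to 0.82) and 0.38 in WT (-0.19 to 0.95), neither called.

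**Figure D4:**
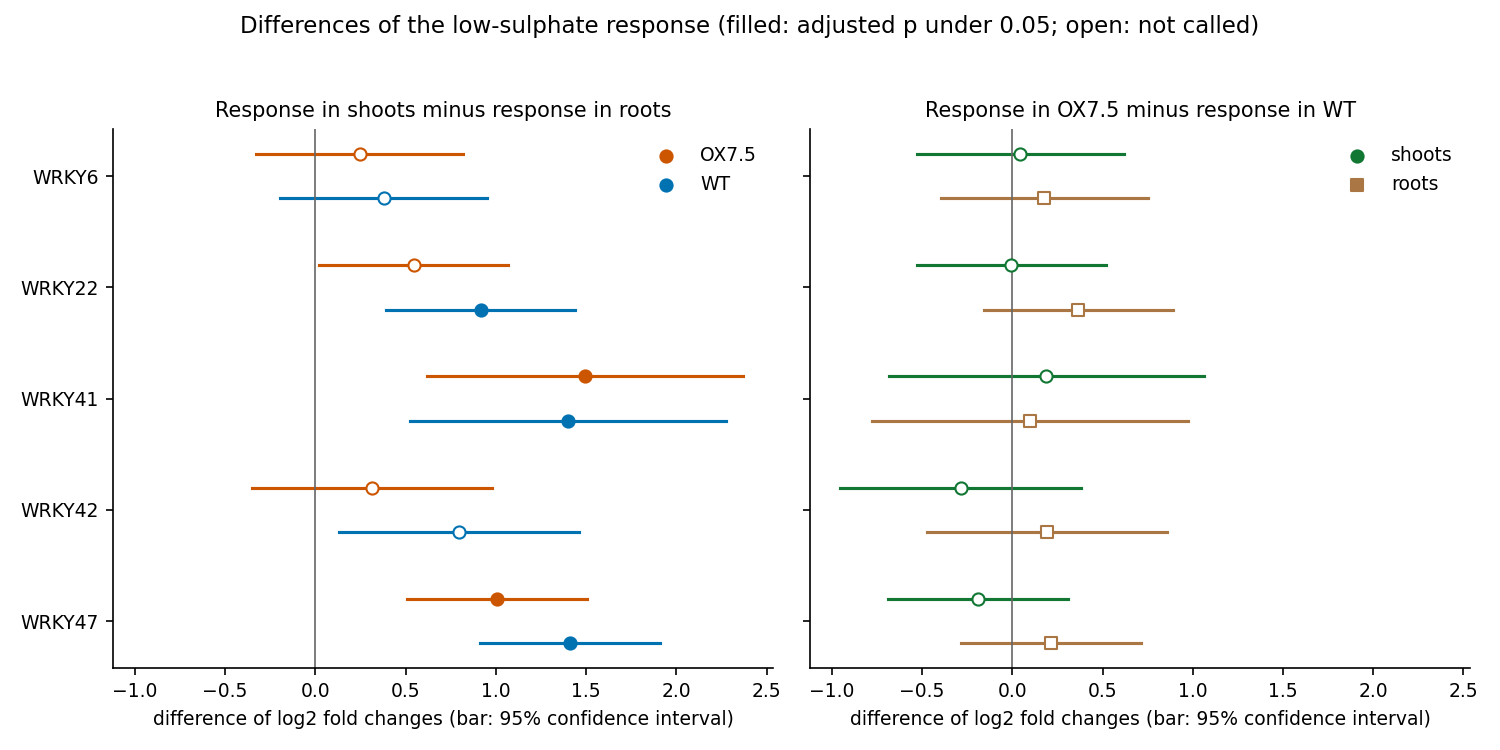
Differences of the low-sulphate response of each WRKY gene with 95% confidence intervals: shoots minus roots in OX7.5 and WT (left), and OX7.5 minus WT in shoots and roots (right). Filled symbols had an adjusted p under 0.05; WRKY41 and WRKY47 are filled in both lines on the left and WRKY22 in WT, and no symbol is filled on the right.

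None of the 5 genes responded to -S differently between the lines at an adjusted p under 0.05. The line by sulfur interaction, the response in OX7.5 minus that in WT, was called for 0.538% of all genes in shoots and 0.0604% in roots, and no member reached an unadjusted p under 0.05 in either organ. The widest interval was that of WRKY41, 0.19 in shoots (95% interval -0.69 to 1.06) and 0.10 in roots (-0.78 to 0.97). For WRKY6 the interaction was 0.04 in shoots (-0.53 to 0.62) and 0.18 in roots (-0.40 to 0.75). For WRKY22 it was -0.01 in shoots (-0.53 to 0.52) and 0.37 in roots (-0.16 to 0.89, limma adjusted p = 0.68), so the call in WT roots alone does not show that the lines differ. WRKY42 gave -0.29 in shoots (-0.95 to 0.38) and 0.19 in roots (-0.47 to 0.86). WRKY47 gave -0.19 in shoots (-0.69 to 0.31) and 0.21 in roots (-0.28 to 0.71). These intervals do not show that the lines responded alike.

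Nor did any of the 5 differ in level between OX7.5 and WT at one sulfur supply. In shoots, 0.0785% of all genes were called in -S and 1.70% in nS, and in roots 0% in -S (633 of 16554 at an unadjusted p under 0.05) and 0.852% in nS. WRKY6 came nearest in shoots, where OX7.5 minus WT was -0.48 in -S (95% interval -0.88 to -0.07, unadjusted p = 0.022, limma adjusted p = 0.70) and -0.52 in nS (-0.93 to -0.12, unadjusted p = 0.013, adjusted p = 0.25). At each supply the 2 lines shared part of their range: WT replicate 1 lay within the range of the OX7.5 arrays, and the other 2 WT arrays lay above all 3 of OX7.5. These contrasts use the same arrays as the responses above. In roots WRKY6 differed by 0.12 in -S and by -0.06 in nS (adjusted p = 1.0 and 0.95).

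Group means were set in order within each organ, and the order followed sulfur supply for WRKY6. In shoots OX7.5 averaged 7.58 ± 0.20 in -S and 5.59 ± 0.28 in nS, and WT averaged 8.05 ± 0.49 in -S and 6.11 ± 0.24 in nS (SD, n = 3 each). The order from the highest was WT -S, OX7.5 -S, WT nS, OX7.5 nS, and of its steps only that between OX7.5 -S and WT nS was called (limma adjusted p = 5.2e-06). For WRKY41 in shoots OX7.5 averaged 4.83 ± 0.17 in -S and 2.47 ± 0.36 in nS, and WT averaged 4.66 ± 0.93 in -S and 2.49 ± 0.37 in nS, so the lines were within their spread at each supply. For WRKY47 in shoots the means in -S were 5.93 ± 0.19 in OX7.5 and 5.93 ± 0.22 in WT, above those in nS of 5.06 ± 0.15 in OX7.5 and 4.87 ± 0.32 in WT. For WRKY22 in roots OX7.5 averaged 4.15 ± 0.12 in -S and 4.64 ± 0.15 in nS, and WT averaged 3.99 ± 0.04 in -S and 4.85 ± 0.34 in nS. Ordered from WT nS through OX7.5 nS and OX7.5 -S to WT -S, no neighbouring pair of WRKY22 was called. WRKY42 in shoots was highest in OX7.5 -S at 4.20 ± 0.55 and lowest in WT nS at 3.58 ± 0.12, again with no called step between neighbours.

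Over the arrays WRKY6 and WRKY41 were the most alike pair of the 5. With the mean of each organ subtracted, Pearson r was 0.87 over 24 arrays, a description in which the arrays share sulfur supply and form a -S and an nS cluster. With the mean of each group subtracted, so that only replicates vary, r was 0.56 for this pair. WRKY41 and WRKY47 had r = 0.71, which was 0.16 with group means subtracted. WRKY22 and WRKY47 behaved the other way, with r = 0.38 over the arrays and 0.60 with group means subtracted. WRKY6 and WRKY22 had r = -0.39, the lowest of the 10 pairs.

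**Figure D5:**
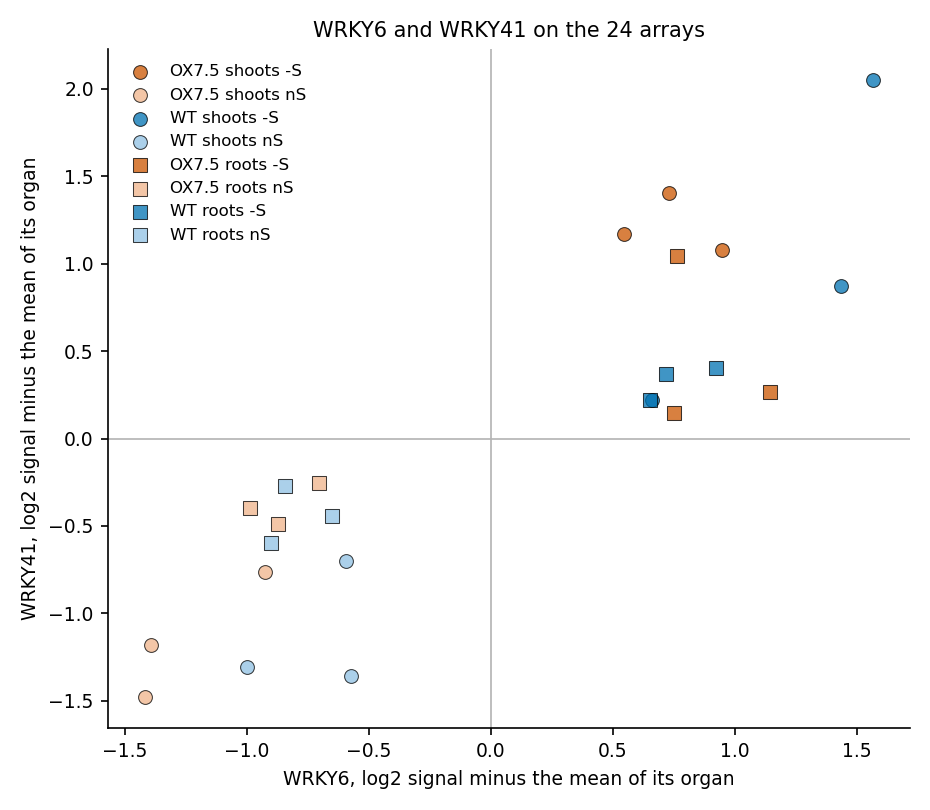
WRKY41 against WRKY6 on the 24 arrays, each as log2 signal minus the mean of its organ, circles for shoots and squares for roots, coloured by line and sulfur supply. All -S arrays are above 0 on both axes and all nS arrays below 0 on both, and Pearson r is 0.87.

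Among all genes tested, those most like each WRKY gene were found by the same r with organ means subtracted. For WRKY6 they were AT5G57510, AT1G43910 and AT3G47480, with r from 0.960 to 0.963, and the first of them had log2 fold changes of 3.30 in OX7.5 shoots, 3.67 in WT shoots, 3.05 in OX7.5 roots and 3.52 in WT roots. For WRKY41 they were AT4G39830, AT4G18250 and AT5G22520, with r from 0.935 to 0.940. AT4G39830, picked by its likeness on these same arrays, had log2 fold changes of 2.14 in OX7.5 shoots, 2.53 in WT shoots, 0.82 in OX7.5 roots and 0.75 in WT roots. For WRKY47 they were SPP, the signal peptide peptidase gene, AT1G13830 and scpl16, a serine carboxypeptidase-like gene, with r from 0.882 to 0.887. SPP had log2 fold changes of 0.63 in OX7.5 shoots, 0.67 in WT shoots, -0.19 in OX7.5 roots and -0.09 in WT roots.

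For WRKY22 the nearest genes were AT5G44060, AT1G47530 and AT5G02350, with r from 0.813 to 0.846. With group means subtracted, r of AT5G44060 was 0.85, a value from the same arrays that picked this gene. Its log2 fold changes were -0.73 in OX7.5 roots and -0.79 in WT roots, with -0.11 in OX7.5 shoots and -0.08 in WT shoots. For WRKY6 the first gene had r = 0.32 with group means subtracted. WRKY42 had no close match, its highest values being 0.716 to 0.744 for AT1G74770, AT2G42150 and AT3G29170. AT1G74770 had log2 fold changes of 0.93 in OX7.5 shoots, 0.83 in WT shoots, 0.17 in OX7.5 roots and -0.33 in WT roots.

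WRKY20 and WRKY29, the companions, moved little. WRKY20 was bright in shoots, at percentiles 86.5 to 89.3, with log2 fold changes of 0.09 in OX7.5 and 0.03 in WT. In OX7.5 roots WRKY20 read 5.09, 4.78 and 5.26 in -S, against 4.54, 4.77 and 4.92 in nS. In WT roots it read 5.32, 5.07 and 4.85 in -S, against 4.33, 4.58 and 4.99 in nS, and -S and nS overlapped in both lines. It rose by 0.45 ± 0.16 in WT roots (standard error, limma adjusted p = 0.048) and had 0.30 in OX7.5 roots (adjusted p = 0.23). The WT call was lost without nS replicate 1, nS replicate 2, -S replicate 1 or -S replicate 2, with values of 0.30 to 0.45. It was also lost with root arrays fitted alone, without moderation and after quantile normalization, at adjusted p from 0.057 to 0.10.

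WRKY29, which shares with WRKY22 its place after the flagellin-triggered MAP kinases, was dim in shoots, at percentiles 43.0 to 55.0, and bright in roots, at 88.1 to 95.8. Its log2 fold change was -0.09 in OX7.5 shoots, -0.42 in WT shoots (limma adjusted p = 0.079), 0.39 in OX7.5 roots (adjusted p = 0.13) and 0.17 in WT roots. In WT shoots it read 3.13, 3.51 and 3.59 in -S, against 3.90, 3.93 and 3.68 in nS, without overlap. Neither companion was called in an interaction, a line difference or an organ difference.

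Few genes of the pathways around these factors could be read with the annotation used. In that annotation 11079 of the 28583 probe sets have no gene, so genes without a value here may still be on the array. Of 70 genes listed for described WRKY targets, pattern-triggered MAP kinase signalling, salicylic acid defence, leaf senescence and phosphate starvation, 4 had a probe set of their own, and of the 10 described WRKY targets and 16 phosphate starvation genes none did. In the MAP kinase list, 2 of 16 genes were measured, and 1 of the 2 rose in each contrast. That gene was BIK1, a receptor-like cytoplasmic kinase that passes on the flagellin signal, with log2 fold changes of 0.66 in OX7.5 shoots (limma adjusted p = 0.025), 0.80 in WT shoots (0.0040), 0.71 in OX7.5 roots (0.012) and 0.63 in WT roots (0.024), standard error 0.20. Each BIK1 call could be lost with 1 array. The call in OX7.5 shoots was also lost with shoot arrays fitted alone, without moderation of the spread and after quantile normalization. The limma adjusted p was then 0.051 to 0.058. That in WT roots was lost after quantile normalization, with a log2 fold change of 0.54 and an adjusted p of 0.05. The single arrays behind a lost call were nS replicate 3 and -S replicates 2 and 3 in OX7.5 shoots, which left 0.47, 0.53 and 0.67. In WT shoots the array was -S replicate 2, which left 0.56. In roots they were -S replicates 1 and 3 of OX7.5, which left 0.61 and 0.62, and nS replicates 1 and 2 and -S replicate 3 of WT, which left 0.53 to 0.59. AP2C1 (AT2G30020), a phosphatase that acts on MAP kinases, was not called, with log2 fold changes from -0.29 in WT shoots to 0.21 in OX7.5 shoots.

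In the salicylic acid list, 1 of 17 genes was measured, SAG101, a partner of EDS1 in defence. It rose by 0.92 in OX7.5 shoots (limma adjusted p = 0.00026) and by 0.90 in WT shoots (0.00016), and had 0.31 in OX7.5 roots and 0.39 in WT roots, neither called. In the senescence list, 1 of 15 genes was measured, the sugar transporter gene SAG29, also named SWEET15. It rose by 1.76 in WT shoots (adjusted p = 0.0030, and 0.99 with an adjusted p of 0.033 without -S replicate 3) and had 1.20 in OX7.5 shoots (adjusted p = 0.059), which was called without OX7.5 -S replicate 3, at 1.61 and an adjusted p of 0.016, and with moderation by an intensity trend, at 0.046. The OX7.5 value was 0.60 without -S replicate 2. In roots SAG29 had 0.20 in OX7.5 and -0.20 in WT.

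Of 15 sulfur deficit markers 2 were measured. BGLU28, a beta-glucosidase gene, rose by 3.86 in OX7.5 roots and by 4.09 in WT roots (limma adjusted p = 7e-09 and 2.3e-09), and had -0.01 in OX7.5 shoots and 0.15 in WT shoots. SDI2 (AT1G04770), which holds back glucosinolate synthesis, rose by 0.998 in OX7.5 roots (adjusted p = 0.00028) and had 0.35 in WT roots (adjusted p = 0.20), 0.13 in OX7.5 shoots and -0.46 in WT shoots. Both markers were thus called in OX7.5 roots and neither in shoots. Among the WRKY genes described, WRKY6 was called in both organs of both lines, and WRKY41 in shoots of both lines and in OX7.5 roots. WRKY47 was called in shoots alone and WRKY22 in WT roots alone. Leaf markers moved beside the WRKY genes in shoots: PSAN, a photosystem I subunit gene, fell by 1.35 in OX7.5 shoots and by 1.17 in WT shoots, and RCA, the Rubisco activase gene, had -0.33 in OX7.5 shoots (adjusted p = 0.16) and fell by 0.54 in WT shoots. In roots RCA was called as fallen, at -0.48 in OX7.5 and -0.44 in WT (limma adjusted p = 0.022 and 0.034). Both root calls were lost with root arrays fitted alone. PSAN had -0.31 in OX7.5 roots and -0.50 in WT roots, neither called. The part of these markers in the WRKY values was not tested.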

How the data were processed

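Total RNA of shoots and roots was hybridised to Affymetrix Arabidopsis Gene 1.1 ST arrays. Deposited values are log2 signals of probe sets, obtained by the authors with Partek and RMA (versions not given in the sources used here). The table has 28583 probe sets on 24 arrays; 16746 probe sets carry exactly 1 gene in the platform annotation, and where a gene had several, the one with the highest mean was kept, leaving 16554 genes, 16418 of them matched to the RefSeq gene table. Coordinates are not given, since the files name no genome build. There were 0 columns of other samples.

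R 4.3.3 and limma 3.58.1 were used. All 24 arrays entered one linear model, with a mean for each group (16 residual degrees of freedom, empirical Bayes moderation). P-values are two-sided and were Benjamini-Hochberg adjusted over all genes. The 3 replicates limit the precision. The script was tested on simulated data. The text names the 5 WRKY genes, other WRKY genes with a probe set of their own, the 3 genes most correlated with each, and measured members of gene lists. The members and lists were chosen with earlier results of these data known. Lists cover described WRKY targets, MAP kinase signalling, salicylic acid defence, senescence, phosphate starvation, sulfur deficit, leaf and root markers.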

Additional observations from a re-analysis of the deposited data

Results flagged for a closer look

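For 3 of the 5 genes the response to -S differed between organs by a test of the difference itself, the log2 fold change in shoots minus that in roots, at a limma adjusted p under 0.05. The differences were 1.49 for WRKY41 and 1.01 for WRKY47 in OX7.5, and 1.40 for WRKY41, 1.41 for WRKY47 and 0.92 for WRKY22 in WT. Those of WRKY41 each lost the call without some single arrays named above, whereas those of WRKY47 and WRKY22 kept it without any single array. WRKY41 was under the array median on 10 of 12 root arrays and 7 of 12 shoot arrays, and WRKY47 and WRKY22 on none of either organ. Groups of 3 arrays were too small to look for single arrays far from the others.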

How the results depend on the processing

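Alternatives to the fit were arrays of one organ alone, dim genes left out, no moderation of the spread, moderation with an intensity trend, a replicate block, quantile normalization over all arrays, every probe set tested, the lowest probe set of a gene, the thresholds of the methods, and each array left out in turn. Of 958 values of the 5 genes under these, 892 kept their direction and side of the threshold, and 45 values that were not called changed sign. No setting turned the direction of a called value of the 5 genes. The all-gene median in WT roots was 0.045 with dim genes left out, where fewer genes are tested, against -0.06; that of the other responses, and of WT roots under the other settings with all arrays, moved by under 0.1. WRKY41 is itself dim and has no value with dim genes left out. The arrays give signals with no background measure, so dim values of WRKY41 and WRKY42 are the least certain.

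With dim genes left out, WRKY42 in WT shoots (0.59, adjusted p = 0.044) and WRKY22 in OX7.5 roots (-0.49, adjusted p = 0.035) were called. So was WRKY22 in OX7.5 roots with one organ alone (-0.49, 0.041) or quantile normalization (-0.49, 0.040), and WRKY41 in WT roots with one organ alone (0.77, 0.010). The thresholds of the methods took in WRKY42 in WT shoots (0.59) and WRKY41 in WT roots (0.77). Without moderation the calls of WRKY41 were lost in OX7.5 roots (0.86, adjusted p = 0.10) and for the organ difference in OX7.5 (1.49, 0.050) and WT (1.40, 0.053). The number of the 5 called in OX7.5 roots was then 1 against 2, and the number called for the organ difference in OX7.5 was 1 against 2, as it was with dim genes left out. With every probe set tested, 5110 were called in OX7.5 shoots, 7902 in WT shoots, 6216 in OX7.5 roots and 7075 in WT roots, against 2507, 4065, 3374 and 3733 genes; more features enter that count.

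Quantile normalization alone changed signs near 0, none called: WRKY42 in OX7.5 roots (0.0052), OX7.5 minus WT of WRKY47 in shoots -S (0.011) and roots nS (-0.022) and of WRKY42 in roots nS (0.0069), BGLU28 in OX7.5 shoots (0.024), WRKY20 in WT shoots (-0.022) and AP2C1 in WT roots (-0.059).

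Within an organ, the deviations of same-numbered replicates from group means correlated at -0.24 to 0.14. There 9 of 24 arrays correlated best with an array of their own number. With so few replicates this cannot show that same-numbered arrays share nothing. Whether shoot and root arrays of the same number came from the same plants was not tested. With the replicate number as a block, WRKY41 in OX7.5 roots (0.86, adjusted p = 0.057) and WRKY20 in WT roots (0.45, 0.052) were no longer called, leaving 1 of the 5 in OX7.5 roots; no other call of the WRKY genes changed.

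Leaving out 1 array at a time gave, for the response, 0.58 to 1.04 for WRKY41 in OX7.5 roots, -0.024 to 0.013 for WRKY42 in OX7.5 roots, 0.00035 to 0.54 in OX7.5 shoots and 0.39 to 0.75 in WT shoots for WRKY42, and -0.089 to 0.17 in OX7.5 shoots and -0.11 to 0.20 in WT shoots for WRKY22. The organ difference ran over 1.32 to 1.77 for WRKY41 in OX7.5, 0.90 to 1.82 for WRKY41 in WT and 0.59 to 0.98 for WRKY42 in WT. The number of the 5 called ran over 3 to 4 in WT shoots, 1 to 2 in OX7.5 roots, 1 to 2 for the organ difference in OX7.5 and 2 to 4 for that in WT; WRKY42 is the gene gained and WRKY41 the gene lost. The interaction ran over -0.24 to 0.22 for WRKY6, -0.15 to 0.16 for WRKY22 and -0.23 to 0.69 for WRKY41 in shoots, and -0.18 to 0.27 for WRKY41 in roots. OX7.5 minus WT in shoots ran over -0.24 to 0.67 for WRKY41, -0.27 to 0.27 for WRKY42 and -0.13 to 0.11 for WRKY47 in -S, and -0.21 to 0.19 for WRKY41 in nS. In roots it ran over -0.0078 to 0.20 for WRKY6 and -0.13 to 0.32 for WRKY41 in -S. In roots nS it ran over -0.13 to 0.018 for WRKY6, -0.023 to 0.14 for WRKY41, -0.23 to 0.12 for WRKY42 and -0.11 to 0.19 for WRKY47. Responses of other genes that changed sign, none called, ran in OX7.5 shoots over -0.26 to 0.13 for BGLU28, -0.017 to 0.16 for WRKY20, -0.28 to 0.011 for EXP7 and -0.00059 to 0.29 for SDI2. In WT shoots they ran over -0.0086 to 0.072 for WRKY20 and -0.14 to 0.010 for AT5G44060, in OX7.5 roots over -0.0032 to 0.18 for AP2C1, and in WT roots over -0.036 to 0.069 for AP2C1, -0.057 to 0.29 for WRKY29 and -0.32 to 0.0011 for SAG29.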

Other observations

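Of the 10 protein-coding genes directly next to the 5 WRKY genes in the RefSeq gene table, 9 had a probe set of their own. AT1G62305, next to WRKY6, rose by 0.90 in OX7.5 shoots and by 1.03 in WT shoots (limma adjusted p = 0.0035 and 0.00051) and had -0.21 in OX7.5 roots and 0.21 in WT roots, while AT1G62290 on the other side was called in no contrast. AT4G04423, next to WRKY42, rose by 0.76 in OX7.5 roots and by 1.09 in WT roots (adjusted p = 0.0016 and 2.6e-05), where WRKY42 was not called. AT4G04460, on the other side of WRKY42, rose by 0.81 in WT shoots (adjusted p = 0.0026) and had 0.26 in OX7.5 shoots, and was not called in roots. AT4G01730, next to WRKY47, fell by 0.77 in OX7.5 shoots and by 0.65 in WT shoots (adjusted p = 0.028 and 0.049), where WRKY47 rose. Both neighbours of WRKY22 were measured and neither was called in any of the 4 contrasts.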
